A study of Homo sapiens with 54 samples.

Results

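The genes described here are 10 immediate-early genes, EGR1, EGR2, EGR3, FOS, FOSL1, JUN, JUNB, IER3, PHLDA1 and MYC, out of 19716 genes that the 42405 probes of a human array could be matched to by name. They are a list of names, of genes that growth factors induce within minutes to hours, and all 10 are on the array, IER3 with 2 probes and the other 9 with 1. IER3 is given by the brighter of its probes, and the other is mentioned where it was tested.

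RNA of human pluripotent stem cells was measured on 54 one-colour Agilent arrays, 2 for each of 27 cultures, in a study that replaced bFGF (FGF2) by FGFC, a chimera of FGF1 and FGF2. H1 is an embryonic stem cell (ESC) line, and 12 of the cultures are H1 in E8 Medium, a defined medium without feeder cells, from 3 numbered experiments, each with a pre-culture and with 3 cultures grown for 4 days in bFGF (100 ng/mL), in FGFC (100 ng/mL) or without any FGF. The other 15 are long-term cultures with bFGF or FGFC, 4 further pre-cultures, and 1 H1 culture that was differentiated through embryoid bodies in medium without added FGF. The long-term systems are H1 in E8 Medium for 30 days, H1 in medium conditioned by mouse embryonic fibroblasts (MEF-CM, 5 ng/mL of FGF) for 41 days, the ESC line KhES-1 on mouse feeder cells (5 ng/mL) for 30 days, the induced pluripotent line 201B7 on mouse feeder cells (10 ng/mL) for 50 days, and the induced pluripotent line 253G1 in E8 Medium (100 ng/mL) for 36 days.

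A level below is the log2 of the background-subtracted signal minus the 75th percentile of the probes of its array, averaged over the 2 arrays of a culture, so that 0 is the 75th percentile. Probes differ in how brightly they report a transcript, so a level is compared only with levels of the same probe. The scanner software marks a spot as well above background or not, and this mark was present for 56.2% to 79.2% of the probes of an array. Each line and medium outside the E8 cultures of H1 was scanned on days and slides of its own, so that line, medium, feeder cells, FGF dose and scan day cannot be told apart between systems. All 10 pluripotent cell markers looked at, POU5F1, SOX2, NANOG, LIN28A, TDGF1, DNMT3B, DPPA4, L1TD1, ZFP42 and TERT, were well above background in each of the 27 cultures. Their mean level was 1.02 in the differentiated culture and 4.19 to 5.59 in the other 26, where the 3 cultures without FGF were at 4.19 to 4.46. Level and not detection thus sets the differentiated culture apart.

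Immediate-early genes are transcribed as soon as a growth factor signal reaches the nucleus, with no need for new protein, and their transcripts are short-lived. Many of them are switched on by the ERK kinases through serum response factor and its ETS-family partners, which sit on CArG boxes and ETS sites of the promoters, and stress, touch and a change of medium can induce them too. In human pluripotent stem cells FGF2 keeps ERK active and helps to hold the cells undifferentiated, so immediate-early transcripts are read here in cells that have had or lacked FGF for days and not for minutes.

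EGR1 encodes a zinc finger transcription factor that binds GC-rich sites. Its RefSeq promoter window is shown because EGR1 is the only member that rose without FGF. The window of FOS, a partner in the AP-1 dimer, is shown beside it because the 2 genes were both high in KhES-1 and yet only EGR1 passed the test without FGF. These are the 250 bases before the start in GRCh38.p14, chr5:138465229-138465478 on the plus strand and chr14:75278578-75278827 on the plus strand. Capitals mark matches on either strand to the 6 motifs searched. These motifs are the CArG box of serum response factor, TGANTCA of AP-1 and the cyclic AMP element TGACGTCA. The others are CCGGAA (a longer form of the ETS site), GCGNGGGCG of EGR proteins, and the TATA element TATAAA.
EGR1: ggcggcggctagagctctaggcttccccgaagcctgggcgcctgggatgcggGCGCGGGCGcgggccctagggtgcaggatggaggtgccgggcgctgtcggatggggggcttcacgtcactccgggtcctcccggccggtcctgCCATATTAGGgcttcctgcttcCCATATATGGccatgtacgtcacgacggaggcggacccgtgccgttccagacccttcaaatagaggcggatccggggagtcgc
FOS: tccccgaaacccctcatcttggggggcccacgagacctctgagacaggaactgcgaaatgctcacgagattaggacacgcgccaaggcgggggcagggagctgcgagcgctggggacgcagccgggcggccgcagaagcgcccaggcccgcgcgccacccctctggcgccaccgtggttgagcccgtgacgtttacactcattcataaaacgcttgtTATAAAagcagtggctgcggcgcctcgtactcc
The EGR1 window holds 2 CArG boxes, at -105 to -96 and -83 to -74, and 1 match to GCGNGGGCG. The FOS window holds TATAAA at -33 to -28. Bases farther upstream than these 250, and ETS sequences shorter than CCGGAA, were not searched. The part of the motifs in the levels was not tested. Of the other members, EGR2 has a CArG box in 1 of its 3 windows, JUNB has TATAAA, PHLDA1 has CCGGAA and JUN has none of the 6, while EGR3, FOSL1, IER3 and MYC have no entry. Over all 34943 windows of that length, 1.16% hold a CArG box, 6.59% the AP-1 site and 1.63% the cyclic AMP element. CCGGAA is in 14.5%, the EGR site in 8.39% and the TATA element in 10.8%.

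In experiments 1, 2 and 3, EGR1 was at -1.36, -1.39 and -1.51 in the pre-cultures and at -0.77, -0.58 and -1.28 after 4 days with bFGF. With FGFC it was at -0.083, -0.54 and -1.37, and with no FGF at 1.35, 0.31 and 0.41. The 3 cultures without FGF lie above all 9 with FGF, whereas the bFGF and FGFC cultures overlap. By mean and SD, the order is pre-culture (-1.42, SD 0.078), bFGF (-0.88, SD 0.37), FGFC (-0.67, SD 0.65) and no FGF (0.69, SD 0.58), and bFGF and FGFC differ by less than their SDs. After 30 days in E8 Medium, EGR1 was at -1.27 with bFGF and at 0.049 with FGFC. In KhES-1 it was at 4.45 in the pre-culture, 4.70 with bFGF and 4.86 with FGFC. The lowest of these is above the highest EGR1 level in any other culture, the 2.55 of 253G1 with bFGF. In the same order EGR1 was at 2.08, 1.75 and 1.47 in 201B7 and at 1.72, 2.55 and 2.25 in 253G1, and in MEF-CM at -0.41, -0.15 and -0.38. Every culture of the 3 lines other than H1 is thus above every H1 culture but the one differentiated through embryoid bodies. Over all 27 the highest and lowest EGR1 levels are 82.4-fold apart.

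EGR2 and EGR3 encode relatives of EGR1. In the 12 cultures of the 4-day experiments EGR2 lay between -4.07 and -2.74, and its 4 conditions overlap. In KhES-1 it was at -0.27, 0.41 and 0.61 in the pre-culture, with bFGF and with FGFC, and the next culture below these, 253G1 with bFGF, was at -1.75. EGR3 was well above background on only 8 of the 54 arrays, the 6 of KhES-1 and the 2 of the 201B7 pre-culture. There it was at -4.37, -3.24 and -3.17 in KhES-1 and at -4.36 in 201B7, and these 4 cultures are the only ones in which the EGR3 probe measured more than background.

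FOS encodes a leucine zipper protein that binds DNA as a dimer with a JUN protein. Its levels in experiments 1, 2 and 3 were -1.61, -1.55 and -0.67 in the pre-cultures and -1.32, -1.73 and -1.63 with bFGF. With FGFC they were -0.38, -2.43 and -2.23, and with no FGF -1.13, -2.46 and -1.95. All 4 conditions overlap, and the FGFC culture of experiment 1 is the highest of the 12. In KhES-1, FOS was at 2.53, 3.03 and 2.90 in the pre-culture, with bFGF and with FGFC, above the highest level elsewhere, 1.41 in 253G1 with bFGF. The 201B7 cultures, at -2.03, -1.74 and -1.86, lie inside the range of H1 in E8 Medium, so that 201B7 has high EGR1 with low FOS.

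JUN, JUNB and FOSL1 encode further subunits of AP-1. JUN lay between -3.97 and -2.12 in all 14 E8 cultures of H1, those without FGF included. It was at 0.60, 0.25 and 0.98 in MEF-CM (pre-culture, bFGF, FGFC), at 1.01, 0.52 and 0.69 in KhES-1, at -0.07, -0.63 and -1.05 in 201B7 and at -0.36, -0.11 and -0.12 in 253G1. The H1 cultures in E8 Medium therefore lie below every other culture in JUN, those of H1 itself in MEF-CM included. FOSL1 was at -1.57, -1.51 and -1.35 in the 3 MEF-CM cultures, which are the highest of all 27, and the next was 253G1 with bFGF at -2.10. JUNB was at -0.95 in the 201B7 pre-culture, -2.13 with bFGF and -3.11 with FGFC. These 3 are the highest JUNB levels in the series, and in H1 in E8 Medium the JUNB probe was well above background on only 17 of the 24 arrays of the 4-day experiments.

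IER3, PHLDA1 and MYC complete the set. IER3 encodes a small protein that acts on ERK signalling and cell survival, PHLDA1 a pleckstrin homology-like protein, and MYC a transcription factor for growth and pluripotency. IER3 was at 1.79, 1.45 and 1.72 with bFGF, at 1.99, 1.06 and 1.20 with FGFC and at -0.54, 0.28 and -1.06 with no FGF in experiments 1, 2 and 3. The cultures without FGF are the lowest 3 of the 27, and the highest 2 are the pre-culture and the FGFC culture in MEF-CM, at 3.46 and 3.50. PHLDA1 was at 0.37, -0.26 and 0.19 with bFGF, at -0.12, -0.33 and 0.22 with FGFC and at -1.04, -1.18 and -1.65 with no FGF. PHLDA1 without FGF is lower than in any 4-day culture with FGF, but the pre-culture of experiment 3, at -1.04, is level with the highest of them, and the 30-day bFGF culture, at -1.11, lies among them. MYC was at 2.60, 2.17 and 2.55 with bFGF, at 2.80, 1.53 and 2.00 with FGFC and at 0.33, 0.65 and 0.25 with no FGF. Only the differentiated culture, at -0.21, has less MYC signal than these last 3, and all other cultures are at 1.53 or higher.

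**Figure D1:**
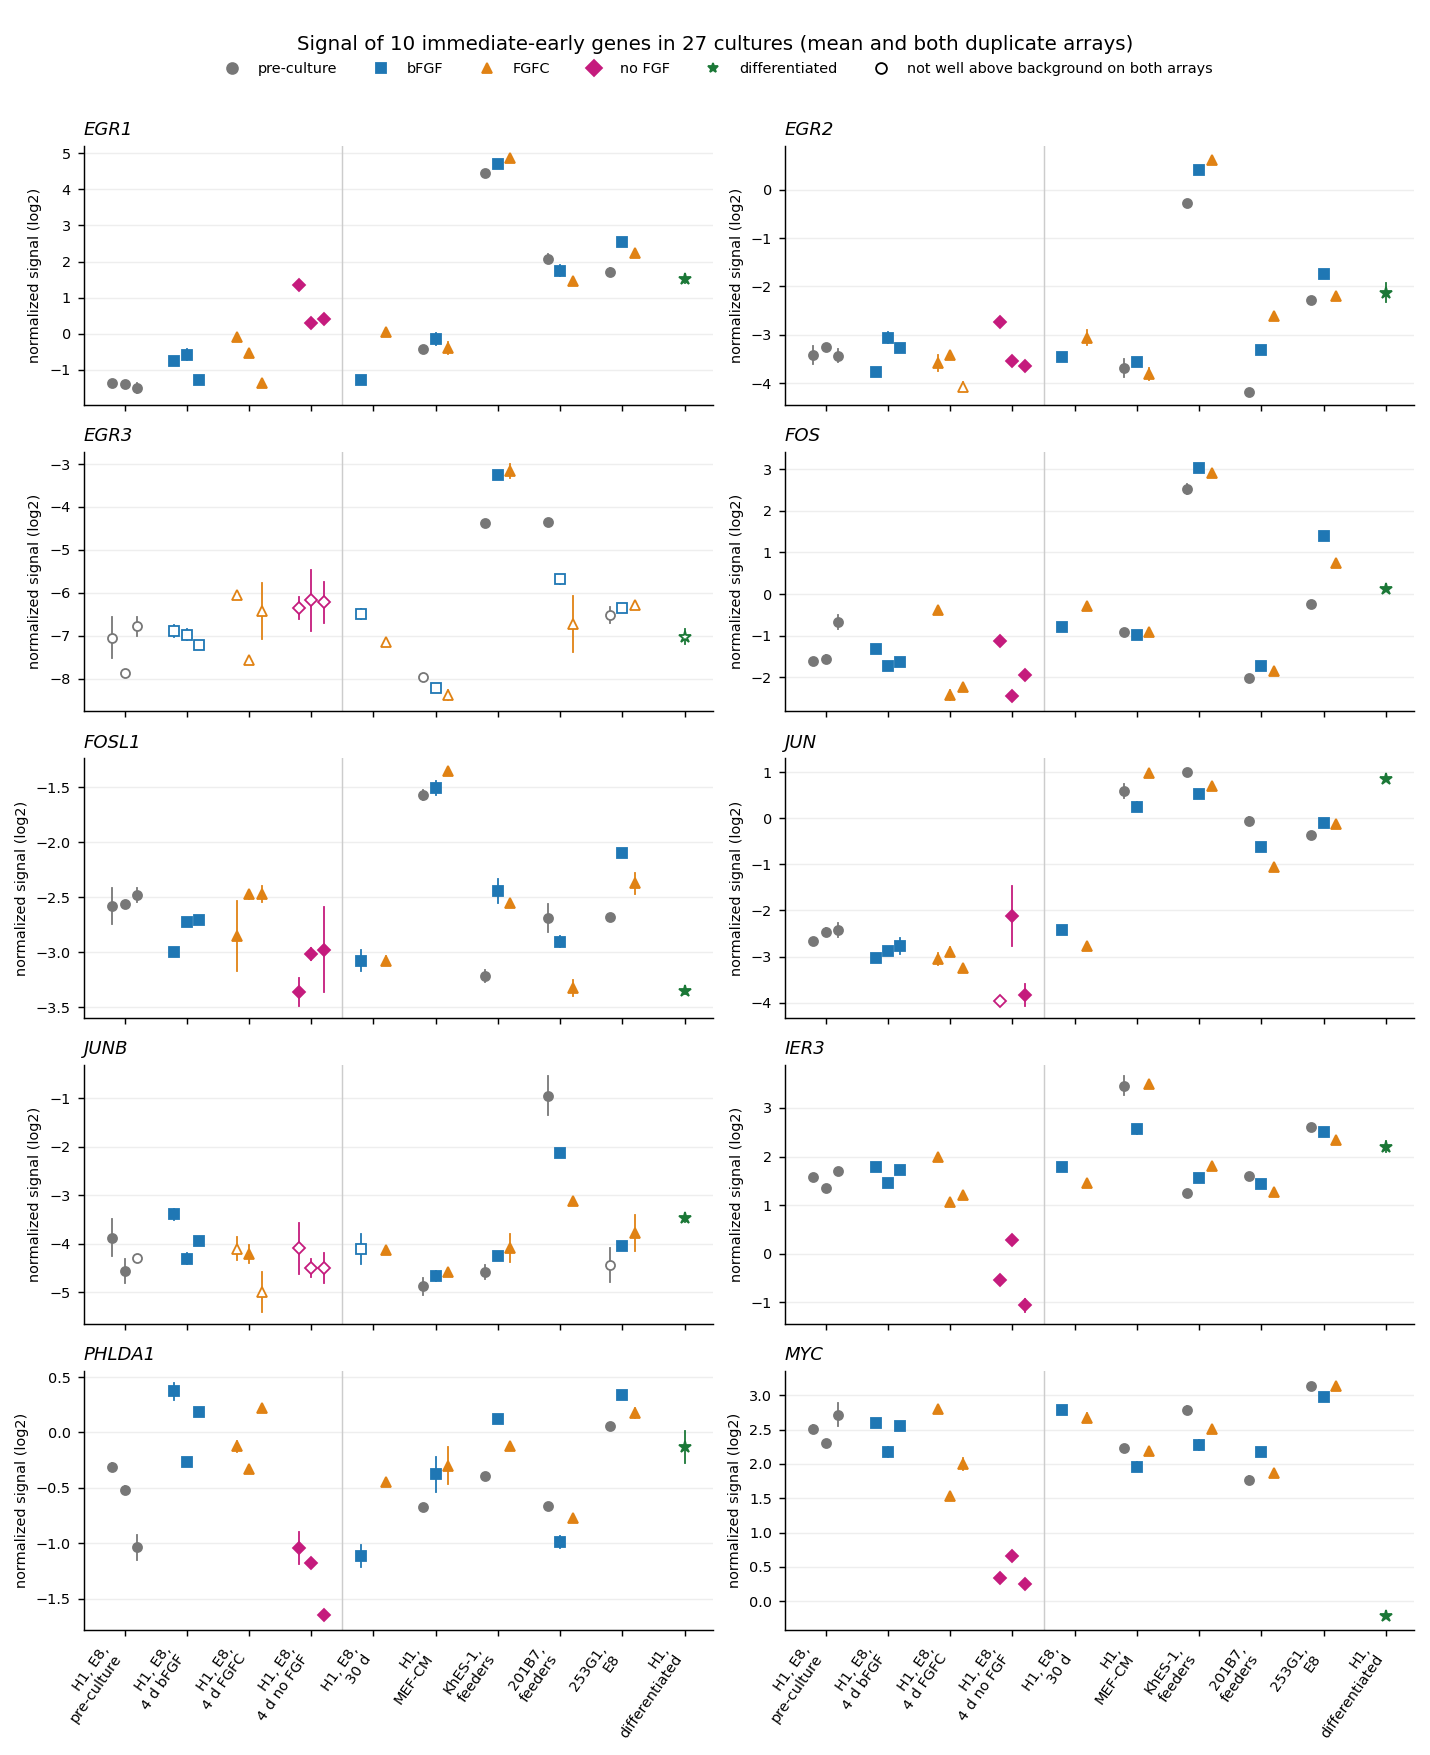
Normalized signal (log2, vertical axis) of the 10 genes in the 27 cultures, grouped along the horizontal axis by line, medium and FGF, with a bar joining the 2 arrays of a culture and open symbols where a probe was not well above background on both. EGR1 and FOS are highest in the KhES-1 cultures (4.45 to 4.86 and 2.53 to 3.03), and MYC and IER3 are low with no FGF (0.25 to 0.65 and -1.06 to 0.28).

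Between no FGF and bFGF at 4 days, 4 of the 10 genes had a limma adjusted p of 0.05 or less, against 12.7% of all probes. EGR1 alone was higher (5.54% of all probes were), and IER3, PHLDA1 and MYC were lower (7.19%). In a fit to probes well above background, 23.6% of them passed. EGR1 rose by 1.57 on the log2 scale (95% interval 0.79 to 2.34), or 2.96-fold, with an adjusted p of 0.0134 in limma. In the 3 experiments the EGR1 difference was 2.12, 0.88 and 1.70, so that it had the same sign in each. IER3 was 4.26-fold lower (log2 difference -2.09, 95% interval -2.82 to -1.36, limma adjusted p = 0.0017), and its other probe gave -2.13 (adjusted p = 0.0022). MYC was 4.07-fold lower (-2.02, interval -2.66 to -1.39, limma adjusted p = 0.000848). PHLDA1 was 2.62-fold lower (-1.39, interval -1.96 to -0.82, limma adjusted p = 0.00476). The cultures without FGF do not overlap those with bFGF in 5 of the 10 genes (42.3% of all probes), these 4 and EGR3. In bulk RNA, fewer cells with a transcript and less of it per cell cannot be told apart. Of the other 6, EGR2 (0.060), FOS (-0.29), FOSL1 (-0.31), JUN (-0.41) and JUNB (-0.48) had limma adjusted p-values of 0.315 to 0.919. The intervals for FOS (-1.42 to 0.84), JUN (-1.27 to 0.45) and JUNB (-1.15 to 0.18) include a 2-fold fall, so these 3 may still differ with and without FGF. JUN gave -0.94, 0.76 and -1.05 in the 3 experiments and -0.996 without experiment 2 (limma adjusted p = 0.0572). EGR3 was below background in both arms, and its limma adjusted p was 0.215, and 0.0166 with only these 2 arms in the fit, where 23.0% of all probes passed. EGR1 missed the threshold whichever experiment was left out, with limma adjusted p-values of 0.0726, 0.0764 and 0.101 without experiment 1, 2 and 3 at differences of 1.29 to 1.91. Without experiment 3 the limma adjusted p was 0.0813 for IER3, 0.094 for PHLDA1 and 0.0738 for MYC, and these 3 passed without either of the others. Over all settings tried, the adjusted p ran from 0.00146 to 0.101 for EGR1, 8.09e-05 to 0.0813 for IER3, 0.000416 to 0.094 for PHLDA1 and 3.13e-05 to 0.0738 for MYC, and these p-values measure only the spread between the cultures at hand.

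The no FGF cultures are also compared with the FGFC cultures, a comparison that shares the 3 cultures without FGF with the one above. The same 4 genes passed limma's test (10.8% of all probes did), again EGR1 as higher (4.71%) and IER3, PHLDA1 and MYC as lower (6.07%). In a fit to probes well above background, 23.8% of them passed. EGR1 rose by 1.36 (95% interval 0.58 to 2.13, limma adjusted p = 0.0308). IER3 was 3.62-fold lower (limma adjusted p = 0.00402, and 0.00573 for its other probe), MYC 3.24-fold lower (0.003) and PHLDA1 2.32-fold lower (0.0115). Cultures of the 2 arms do not overlap in 5 of the 10 genes (25.5% of all probes), these 4 and FOSL1. FOSL1 had a difference of -0.52 and a limma adjusted p of 0.0899. That p was 0.0424 with the experiment as a block, 0.0223 with the slide as a random block, 0.0337 among probes well above background and 0.0231 on the second arrays alone, and 0.0223 to 0.586 over all settings. The EGR1 call is the least steady. Its limma adjusted p was 0.0633, 0.15 and 0.24 without experiment 1, 2 and 3, 0.118 with only these 2 arms in the fit (6.00% of all probes passed) and 0.0606 on the second arrays, and it ran from 0.00542 to 0.24 over all settings. IER3 missed the threshold without experiment 1 (0.0751) and 3 (0.111), PHLDA1 without experiment 2 (0.0748) and 3 (0.23), and MYC without experiment 3 (0.123), all by limma, with lowest values of 0.00031, 0.00173 and 0.000201 over the settings.

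**Figure D2:**
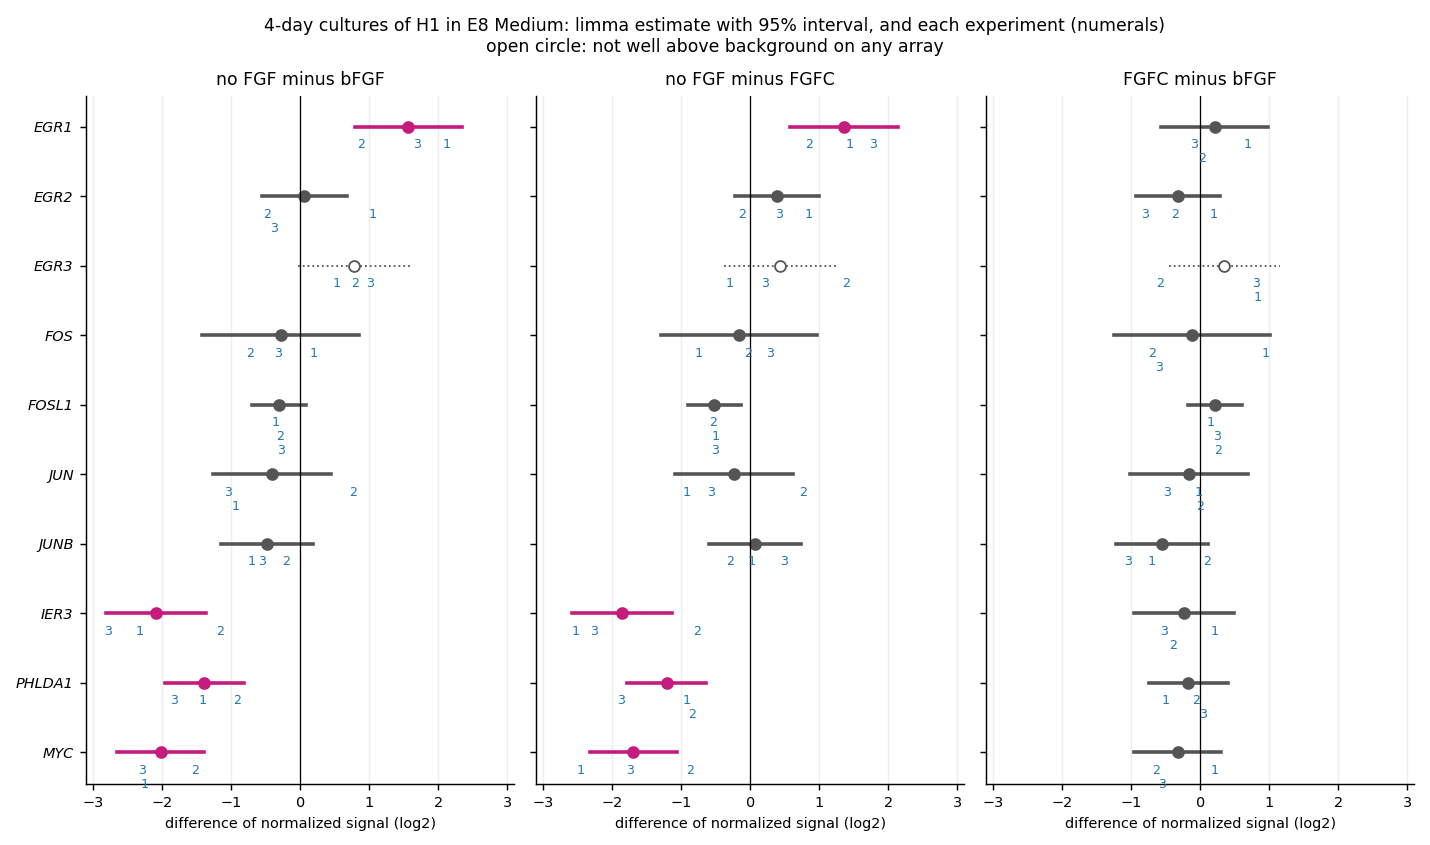
Differences of normalized signal (log2, horizontal axis) for the 10 genes in 3 pairs of 4-day arms, as limma estimates with 95% intervals and as numerals for the experiments; pink marks those past the test. EGR1 is up without FGF (1.57 against bFGF, 1.36 against FGFC) and IER3, PHLDA1 and MYC are down, while FGFC minus bFGF has none past the test.

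Beside the members, 18 other immediate-early transcription factors were looked at, and 5 of them passed limma's test between no FGF and bFGF, 2 higher and 3 lower, with a median difference of 0.068 over the 18 against 0.013 over all probes and -0.36 over the members. EGR4, another EGR relative, was at least 2.45-fold higher without FGF (limma adjusted p = 0.00583), and the nuclear receptor gene NR4A3 at least 3.23-fold higher (0.000937). ATF3 (-1.25, limma adjusted p = 0.00618) and MAFF (-0.93, 0.011) fell, and both encode leucine zipper proteins. Of 23 immediate-early genes whose products do not bind DNA, 7 passed, 2 higher and 5 lower, and the median was -0.38. The largest were falls of GADD45B (-2.72, limma adjusted p = 0.00158), DUSP5, a phosphatase of nuclear ERK (-1.90, 0.000809), the synaptic gene ARC (-1.65, 0.00527) and IER5 (-1.08, 0.00802). The immediate-early genes that passed thus moved in both directions, while most genes of each list did not pass. EGR1, EGR4, NR4A3 and 2 unnamed genes without DNA binding went up, and the others named here went down. For the whole array, 5.54% of probes passed limma's test as higher without FGF and 7.19% as lower.

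Genes around the FGF signal are the next lists. Of 11 genes of ERK feedback and of the ETS family, 3 were lower and 1 higher without FGF than with bFGF (median -0.29). Among them the ETS factor ETV4 fell by 1.44 (limma adjusted p = 0.00172), and the ERK phosphatase DUSP4 rose by 0.58 (0.0378). The feedback inhibitors SPRY4 (-2.40, limma adjusted p = 0.000845) and DUSP6 (-2.66, 0.0123) were the other 2, so EGR1 rose in cultures where these 2 were low. Of 21 FGF receptors and members of the ERK cascade, 4 were higher and 2 lower (median 0.27). The receptor gene FGFR3 rose by 2.43 (limma adjusted p = 0.000632), the adaptor gene FRS2 by 1.06 (0.000618) and HRAS by 0.86 (0.0283). ELK3, an ETS partner of serum response factor, was at least 2.94-fold lower (limma adjusted p = 0.000163). Of 9 partners and antagonists of MYC, MXD1, an antagonist, rose by 1.21 (limma adjusted p = 0.011). MXI1, also an antagonist (-0.79, limma adjusted p = 0.0183), and MYCL (-1.30, 0.00105) fell. None of 8 heat shock genes passed limma's test (count 0, median 0.49), although HSPA1A (0.92, limma adjusted p = 0.227) did so with the experiment as a block (0.0403).

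The state of the cells differed between the same arms. Of the 10 pluripotent cell markers, 5 were lower and 1 higher without FGF (limma, median -0.57). Their mean level was 4.19 to 4.46 in the 3 cultures without FGF and 4.72 to 5.20 in the 9 H1 cultures with FGF of these experiments. Of 14 early differentiation markers 5 rose, among them DLX5 at least 387-fold, PAX6 at least 37.7-fold, GATA3 at least 20.1-fold and TFAP2A at least 9.42-fold. The fibroblast markers gave 1 higher and 2 lower of 9. Their summed level on the linear scale was 19.0 to 25.6 without FGF and 43.1 to 65.8 in the 9 cultures with FGF. The sum is carried by THY1 (3.43 to 3.86 against 4.88 to 5.78 in log2). THY1 was well above background on all 54 arrays, those of cultures without feeder cells included, so this sum is no measure of fibroblasts. The mean log2 level of the 9 markers overlaps, at -2.31 to -2.07 without FGF and -2.57 to -1.84 with it. What part the change of cell state has in EGR1, IER3, PHLDA1 and MYC was not tested. Against FGFC the lists gave 5 of 18 other immediate-early transcription factors (3 higher), 8 of 23 without DNA binding (2 higher), 4 of 11 feedback and ETS genes (1 higher), 4 of 21 receptors and cascade members (2 higher), 2 of 9 MYC partners (1 higher), 0 of 8 heat shock genes, 7 of 10 pluripotent markers (2 higher), 2 of 9 fibroblast markers (0 higher) and 4 of 14 differentiation markers (4 higher), all by limma.

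With FGFC against bFGF at 4 days, 0 of the 10 genes passed limma's test (0% of probes did), and 0 had an unadjusted p under 0.05, against 2.98% of probes. The EGR1 difference was 0.21 with a 95% interval of -0.57 to 0.99, and that of FOS -0.12 with -1.25 to 1.01, so the intervals leave room for differences of near 2-fold in EGR1 upward and in FOS either way. The sign of both depends on the experiments used, since EGR1 gave -0.027 without experiment 1, and FOS gave 0.17 without experiment 2 and 0.12 without experiment 3. JUNB had the largest difference of the 10, -0.55, with a limma adjusted p of 1. Its probe was well above background on 4 of the 6 FGFC arrays and on all 6 bFGF arrays. No gene of the other lists passed in this comparison or in the next.

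The 4-day bFGF cultures against the pre-cultures compare the same medium and FGF at another time in culture. In experiment 2 the passage labels put 10 passages between the 2, against 1 in the other experiments, so that link is in doubt, and some passage labels of experiment 3 conflict. Here 0 of the 10 passed limma's test (0% of probes), and 1, PHLDA1, had an unadjusted p under 0.05, against 2.00% of probes. PHLDA1 was at -0.31, -0.52 and -1.04 in the pre-cultures. The difference is 0.72 (95% interval 0.15 to 1.29, limma adjusted p = 1). The 3 cultures with bFGF do not overlap the pre-cultures in 4 of the 10 genes (5.91% of all probes), which are PHLDA1 and EGR1 (0.54), with bFGF above, and JUN (-0.38) and FOSL1 (-0.27), with bFGF below.

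The spread between the 3 cultures of a condition was also measured. The range over the 3 cultures was 2-fold or more for 1 member in the pre-cultures (24.7% of all probes), for 0 in the bFGF cultures (12.9%), for 4 in the FGFC cultures (28.1%) and for 4 in those without FGF (15.6%). Many of those probes are near background. Among the 21867 probes well above background on all 24 arrays of the 4-day experiments, which include EGR1, FOS, FOSL1, IER3, PHLDA1 and MYC, the range reached 2-fold for 0 of these 6 in the pre-cultures (5.33% of such probes), for 0 in the bFGF cultures (0.928%), for 3 in the FGFC cultures (8.73%) and for 3 in those without FGF (3.88%). With FGFC the 3 are EGR1 (2.44-fold), FOS (4.13-fold) and MYC (2.41-fold), and in each of them experiment 1 is the highest culture. With no FGF they are EGR1 (2.07-fold), FOS (2.53-fold) and IER3 (2.54-fold). After normexp correction only IER3 of all 10 members still spanned 2-fold without FGF (2.22-fold), with EGR1 at 1.97-fold and FOS at 1.95-fold. Experiment 1 is the highest there too for EGR1 and FOS, but not for IER3, which is highest in experiment 2.

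The duplicate arrays of a culture lie on 1 slide and were scanned on 1 day, except for the pre-culture of experiment 1, while the experiments differ in slide and day, so duplicates leave out what slides and days add to the spread. For FOS the SD between cultures of a condition was 0.72, at percentile 99.6 among these bright probes, while its duplicate arrays differed by 0.10 on average, at percentile 36.2. EGR1 had an SD of 0.47 (percentile 95.9) and a duplicate difference of 0.15 (67.5). IER3 had 0.44 (94.1) and 0.082 (18.7). MYC had 0.37 (87.9) and 0.093 (28.8), and PHLDA1 0.33 (80) and 0.092 (28.1). Thus 5 of these 6 members vary more between cultures than the median bright probe, whose SD is 0.23 and whose duplicate difference is 0.12. FOSL1 is the other way round, with an SD of 0.17 (percentile 24.3) and a duplicate difference of 0.21 (percentile 87.1). Among the dimmer probes, the wide range of JUN without FGF (3.60-fold) rests on experiment 2, where its 2 arrays differ by 1.30. The share of probes well above background also varied among the FGFC arrays, at 59.96% and 57.2% in experiment 1, 76.4% and 77.1% in experiment 2 and 57.1% and 71.3% in experiment 3, and its part in the spread was not tested.

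**Figure D3:**
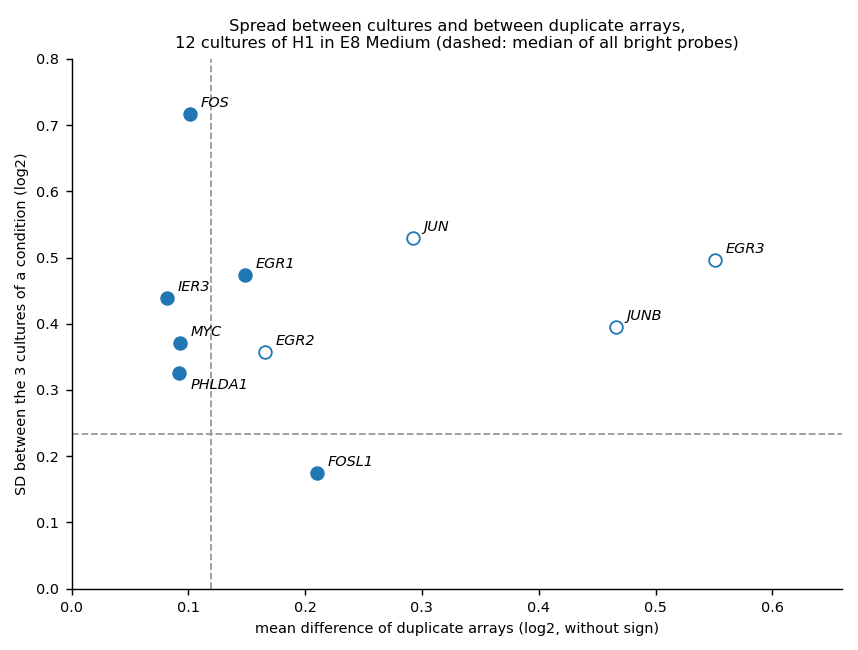
Pooled SD between the 3 cultures of a condition (log2, vertical axis) against the mean difference of duplicate arrays (log2, horizontal axis) for the 10 genes over the 12 H1 cultures of the 4-day experiments, with open symbols for probes not well above background on all 24 arrays. FOS (0.72 against 0.10) and EGR1 (0.47 against 0.15) lie far above the dashed median SD of bright probes (0.23), and FOSL1 (0.17 against 0.21) lies below it.

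Differences between systems were not tested here, and genes were counted at 2-fold between the long-term bFGF cultures, 1 per system, with H1 in E8 Medium as the common reference. All 4 comparisons share that 1 reference culture. Counts for the other lists include genes near background, and the number held follows where it is smaller, that is, with the brighter culture well above background on both arrays and the fold, or its "at least" value, still 2 or more. In KhES-1 6 of the 10 genes were 2-fold or more higher, against 4.80% of probes. They are EGR1 (62.8-fold), EGR2 (14.5-fold), FOS (14.1-fold), JUN (7.70-fold), PHLDA1 (2.35-fold) and EGR3 (at least 3.97-fold, since the reference was below background). After normexp correction the EGR3 difference was 2.34-fold. Over the H1 pre-cultures in E8 Medium the mean of the 3 KhES-1 cultures was higher in EGR1 (68.0-fold), FOS (17.2-fold), EGR2 (12.3-fold), JUN (9.55-fold) and EGR3 (at least 5.70-fold). PHLDA1 was at -0.39, 0.12 and -0.12 in the 3 KhES-1 cultures, and their mean is 1.40-fold over those pre-cultures, so its 2-fold difference rests on the reference culture. MYC (-0.52) and IER3 (-0.22) in KhES-1 were less than 2-fold from the reference, and JUNB was at -0.14, a sign that turned under quantile normalization (0.41). The median over all probes was -0.45 in this comparison, -0.21 after normexp background correction and -0.021 after quantile normalization, against 2.09 over the members, and all 6 genes stayed 2-fold or more higher under both.

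Other immediate-early genes were high in KhES-1 as well. Of the 18 transcription factors 6 were 2-fold or more higher and 0 lower, led by FOSB (at least 19.7-fold) and EGR4 (at least 18.2-fold). Of the 23 without DNA binding 10 were higher and 2 lower (1 held), led by BTG2 (6.59-fold) and PLK2 (5.59-fold). Of the 11 ERK feedback and ETS genes 0 were higher and 5 lower, among them DUSP6 (12.8-fold lower) and SPRY4 (4.56-fold lower), where 32.9% of all probes were 2-fold or more lower. High EGR1 and FOS and low DUSP6 were thus found together in KhES-1. Its FGF dose was 5 ng/mL against 100 ng/mL in the reference, and dose, line, medium, feeder cells and scan day cannot be told apart. Of the 8 heat shock genes only HSPB1 was 2-fold or more higher (10.5-fold), and the mean level of the 8 was 3.09 to 3.30 in KhES-1 and 1.91 to 3.00 in H1 with FGF in the 4-day experiments, but the 30-day H1 cultures in E8 Medium, at 2.58 (bFGF) and 3.18 (FGFC), reach into the KhES-1 range. Fibroblast markers summed to 39.1, 43.7 and 42 in KhES-1, with 6 of 9 well above background and COL3A1, LUM and FBN1 not. THY1 is the brightest probe and carries the sum (4.80, 4.72 and 4.76, against 5.50 in the reference), so the sum is no measure of fibroblasts here either. Against the reference 2 of the 9 were 2-fold or more higher (1 held) and 4 lower (1 held), with a median of -0.78. The higher 2 are COL1A1 (3.18-fold) and DCN (at least 1.77-fold and so not held to 2-fold), and the lower 4 are PDGFRB (3.52-fold lower) and the 3 that were below background in both cultures. DCN was well above background on both arrays of each KhES-1 culture and of no H1 culture in E8 Medium. The feeder cells are mouse cells and the array is a human one, and how far each probe picks up mouse RNA was not measured. What part the feeder cells have in KhES-1 was not tested.

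In 253G1, which grew in E8 Medium with the reference's FGF dose, 5 of the 10 genes were 2-fold or more higher (6.43% of probes). They are EGR1 (14.2-fold), JUN (4.98-fold), FOS (4.56-fold), EGR2 (3.26-fold) and PHLDA1 (2.73-fold), and the median over the members was 1.22 against 0.021 over all probes. The mean of the 3 253G1 cultures is 1.76-fold over the H1 pre-cultures in PHLDA1. FOS was at -0.24, 1.41 and 0.75 in the pre-culture, with bFGF and with FGFC, a 3.13-fold range. After normexp correction EGR2 was at 0.88, under 2-fold, and after quantile normalization FOSL1 joined at 1.04. Of the other immediate-early genes 7 of 18 transcription factors (3 held) and 7 of 23 without DNA binding were higher and 0 of either lower, with FOSB at least 9.26-fold, GADD45B 4.72-fold and PLK2 4.43-fold higher. The feedback and ETS genes gave 0 of 11 in either direction, and DUSP6 was at -0.65. HSPB1 was 12.7-fold higher, and the heat shock genes had a mean level of 3.09 to 3.22. EGR1 and JUN were high in all 3 cultures of 253G1, while FOS in its pre-culture is level with the highest H1 cultures in E8 Medium (-0.29 and -0.38). Line and scan day both differ from the reference here and cannot be told apart.

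In 201B7 3 of the 10 genes were 2-fold or more higher (8.24% of probes), EGR1 (8.14-fold), JUN (3.47-fold) and JUNB (at least 3.95-fold, and 0.91 in log2 after normexp correction). FOS was lower than the reference, at -0.96, and the median over the members was 0.16 against -0.21 over all probes. Among the transcription factors 4 of 18 were higher (2 held) and 0 lower, led by NR4A2 (at least 26.2-fold) and KLF4 (at least 8.97-fold). Those without DNA binding gave 5 higher and 5 lower (4 held) of 23, with ARC 6.19-fold lower, and feedback and ETS genes 0 higher and 5 lower of 11, with DUSP6 at -3.67, where 13.1% of all probes were 2-fold or more lower. HSPB1 was 6.12-fold higher. Early differentiation markers gave 6 higher (5 held) and 1 lower (0 held) of 14, with SOX17 at least 21.1-fold and GATA6 at least 10.8-fold higher and a median of 0.89. SOX17 and GATA6 were well above background in the 201B7 cultures with bFGF and FGFC but not in the pre-culture. The part of these markers in the other genes was not tested.

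The 201B7 pre-culture stands apart within its line. Its JUNB signal was 4.47-fold that of the 201B7 FGFC culture and at least 9.84-fold that of the H1 pre-cultures in E8 Medium, and its EGR3 signal at least 3.58-fold and 3.36-fold. Fibroblast markers fell off in the same order as JUNB, with summed levels of 258, 143 and 75.5 in the pre-culture, with bFGF and with FGFC, 6 of 9 well above background in each, DCN the brightest probe (7.08, 6.28 and 4.85) and COL3A1, LUM and FBN1 not above background. The pre-culture was also scanned on another day, and its arrays have the lowest 75th percentile of signal in the series, 182 and 234. The part of the fibroblast markers, the scan day and the dim arrays in JUNB and EGR3 was not tested.

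In MEF-CM, with the same line as the reference, 3 of the 10 genes were 2-fold or more higher (6.63% of probes), JUN (6.40-fold), FOSL1 (2.96-fold) and EGR1 (2.19-fold). After normexp correction only JUN stayed so, with EGR1 at 0.97 and FOSL1 at 0.92. EGR3 alone was 2-fold or more lower (19.1% of probes), and it was below background in both cultures. The EGR1 count depends on the E8 culture taken, since 2 FGFC cultures in E8 Medium (0.049 at 30 days and -0.083 at 4 days in experiment 1) lie above all 3 MEF-CM cultures. IER3 was 1.71-fold higher than the reference, but the mean of the 3 MEF-CM cultures is 3.09-fold over the H1 pre-cultures in E8 Medium. Against the reference FOS was at -0.19 and MYC at -0.83, while that mean over the pre-cultures gave 0.35 for FOS and -0.39 for MYC. The median against the reference was 0.31 over the members and -0.17 over all probes. Other immediate-early transcription factors gave 5 higher (3 held) and 0 lower of 18, with NR4A3 at least 6.11-fold and KLF2 at least 2.32-fold higher. Those without DNA binding gave 7 higher and 5 lower (4 held) of 23 (19.1% of all probes were lower), with PLK2 12.1-fold and BTG2 7.37-fold higher. DUSP6, at -2.86, was the only 1 of 11 feedback and ETS genes past 2-fold, and FGFR3 was 4.44-fold and HSPB1 6.72-fold higher. Early differentiation markers gave 4 higher (1 held) and 3 lower (0 held) of 14, with AFP 5.36-fold higher, and 7 to 9 of them were well above background in MEF-CM against 2 in the reference. JUN is the only member that was 2-fold or more higher in all 4 systems under each of the 3 scalings, with EGR1 at 2.19-, 1.95- and 2.17-fold in MEF-CM (75th percentile, normexp, quantile).

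**Figure D4:**
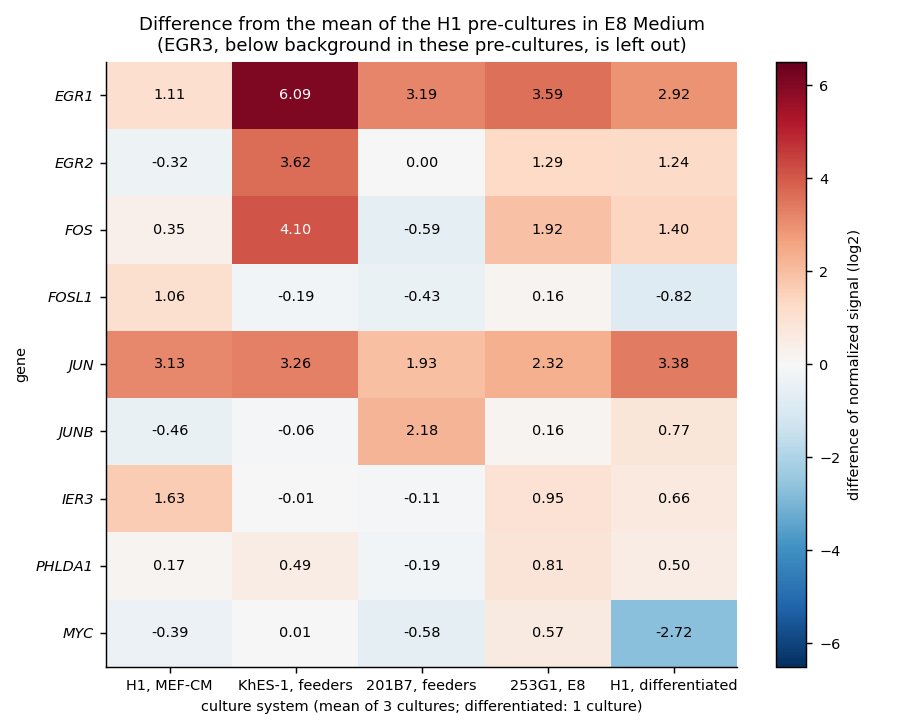
Difference of normalized signal (log2, colour and numerals) from the mean of the 3 H1 pre-cultures in E8 Medium for 9 of the genes (vertical axis), as the mean of 3 cultures in each of 4 systems and for the differentiated culture (horizontal axis). EGR1 (1.11 to 6.09) and JUN (1.93 to 3.38) are higher in all 5 columns, FOS is highest in KhES-1 (4.10) and MYC is lowest in the differentiated culture (-2.72).

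Long-term FGFC against bFGF was tested over the 5 systems with limma, with the system as a block. In this test 0 of the 10 genes passed (0% of probes), and 0 had an unadjusted p under 0.05, against 5.91% of probes. The estimates ran from -0.34 for EGR3 to 0.13 for EGR1, with limma adjusted p-values of 0.704 to 0.964. The EGR1 interval is -0.49 to 0.76, so the 2 agents may still differ in EGR1 by up to that much. No gene of the other lists passed.

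Within single systems few members reach 2-fold between FGFC and bFGF. In H1 in E8 Medium 1 of the 10 did (6.86% of probes), EGR1, which was 1.32 higher with FGFC. In MEF-CM 0 did (4.40%), although IER3 (0.94) and JUN (0.73) were higher with FGFC. In KhES-1 0 did (3.16%), and its differences ran from -0.24 for PHLDA1 to 0.24 for MYC. In 201B7 1 did (6.17%), EGR3, which was below background in both cultures, and JUNB was just under 2-fold, at -0.98. In 253G1 0 did (7.36%), and FOS was at -0.66. EGR1 was higher with FGFC in H1 in E8 Medium and in KhES-1 (0.16), and lower in MEF-CM (-0.23), 201B7 (-0.28) and 253G1 (-0.30).

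**Figure D5:**
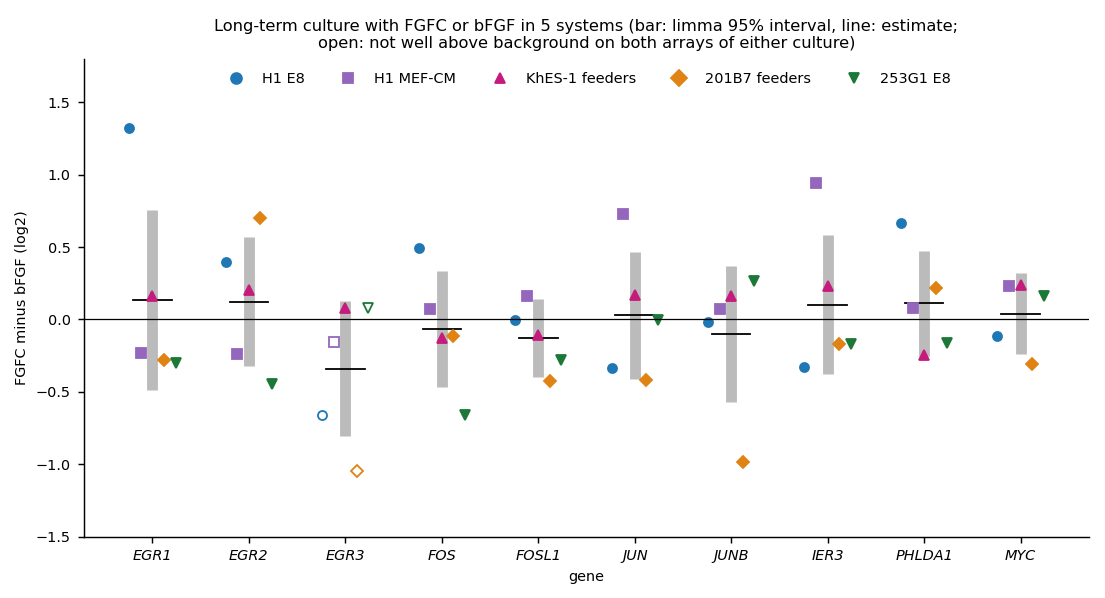
FGFC minus bFGF (log2, vertical axis) for the 10 genes (horizontal axis) in 5 long-term systems, with the limma estimate and its 95% interval. The largest difference is that of EGR1 in H1 in E8 Medium (1.32), and every interval crosses 0.

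The differentiated H1 culture is a single culture, set here against the 3 H1 pre-cultures in E8 Medium. It was scanned on a day of its own and, unlike the pre-cultures, had no FGF. In it 9 of 10 pluripotent markers were 2-fold or more lower and 13 of 14 early differentiation markers (11 held) 2-fold or more higher. Of the 9 fibroblast markers 7 were 2-fold or more higher and 1 lower. All 9 were well above background, with a summed level of 207 and COL1A1 the brightest probe. Of the 10 immediate-early genes 4 were 2-fold or more higher (14.3% of probes), JUN (10.4-fold), EGR1 (7.59-fold), FOS (2.64-fold) and EGR2 (2.36-fold, but 0.69 in log2 after normexp correction). MYC alone was 2-fold or more lower, at -2.72 (15.5% of probes). JUNB was at least 1.71-fold higher (1.27-fold after normexp correction), and its probe was well above background on 5 of the 6 pre-culture arrays. The median was 0.72 over the members and -0.12 over all probes. Among other immediate-early genes 10 of 18 transcription factors were higher and 0 lower, led by BHLHE40 (at least 24.2-fold), and 9 of 23 without DNA binding were higher and 3 lower. Of the feedback and ETS genes 5 of 11 were lower and 0 higher, SPRY4 at -5.51 and ETV4 at -4.67, and of the 9 MYC partners and antagonists 3 were higher, with the antagonist genes MXD1 at 2.46 and MXD4 at 1.96. High EGR1 with low MYC, SPRY4 and ETV4 is thus found both in this culture and in the 4-day cultures without FGF. JUN and FOS were 2-fold or more higher in the former and did not pass the test in the latter. IER3 (0.66) and PHLDA1 (0.50) were not lower in the former and fell in the latter. The references differ, the pre-cultures for the former and 4-day bFGF for the latter. Against the pre-cultures' means of 1.55 (IER3) and -0.62 (PHLDA1), the cultures without FGF averaged -0.44 and -1.29. The highest of them in PHLDA1 (-1.04) is level with the lowest pre-culture (-1.04). The 2 kinds of culture were not tested against each other.

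How the members move with each other depends on which cultures are taken. Over all 27 cultures, Pearson's r was 0.77 between EGR1 and FOS, 0.85 between EGR1 and EGR2 and 0.90 between EGR2 and FOS. Without the 3 KhES-1 cultures these became 0.42, 0.60 and 0.69 over 24 cultures, so much of the likeness rests on KhES-1. Over deviations from the condition means in the 12 H1 cultures of the 4-day experiments, r was 0.64 for EGR1 and FOS, 0.70 for EGR1 and EGR2 and only 0.26 for EGR2 and FOS. IER3 and MYC had 0.81 there and 0.56 over all 27. FOSL1 ran against FOS (-0.75) and EGR1 (-0.77) within conditions. Arrays of a culture share their RNA and cultures of a system share a line and scan day, so these are descriptions and not independent points.

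The genes most like each of 9 members over the 27 cultures were looked for among 15113 genes. For EGR1 they are CTPS2 (r 0.93), DOK1 (0.93) and PLS3 (0.92), and for EGR2 they are FOS (0.90), LYSMD1 (0.90) and IGBP1 (0.89). For FOS they are TSG101 (0.92), EGR2 (0.90) and LAMTOR5 (0.90), and all 3 of these members have their highest level in KhES-1. EGR3 is left out, since its probe measured more than background in only 4 cultures. JUN is most like ERICH5 (0.96), LCP1 (0.95) and S100A10 (0.95), and FOSL1 like PLOD3 (0.86), SHLD2 (0.85) and EXTL3 (0.84). JUNB, which is high in 201B7, is most like GSN (0.92), NIPBL (0.92) and CCDC126 (0.91). For IER3 the genes are KCNF1 (0.93), ADAMTS5 (0.92) and CRIM1-DT (0.92), for PHLDA1 ANKRD28 (0.80), CNOT6L (0.78) and ATF3 (0.78), and for MYC CBR1 (0.96), SEPHS1 (0.95) and MTAP (0.95). Of these 9 only EGR2, FOS and PHLDA1 have another gene of the immediate-early lists among their first 3. Within conditions, over the 12 cultures, EGR1 is most like GALK1 (0.97), FRAT1 (0.96) and RAB20 (0.95), and FOS like WAPL (0.99), PPP2R3C (0.99) and GSK3B (0.98), so neither keeps a gene of its list for all 27 cultures.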

How the data were processed

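RNA of 27 cultures was measured on 54 arrays. The authors deposited the output of Agilent Feature Extraction 10.7.3.1, whose signal intensity has its background subtracted and is linear, with no scaling of arrays to each other. They also deposited yes or no flags for each spot (outlier, saturated, well above background). Each array has 62976 spots, and 4259 control spots were left out. The 266 to 623 outlier spots were left out too, except in 606 probe values that had only outlier spots. Signals were taken to log2 with a floor of 1, averaged over the spots of 42405 probes, and scaled to the 75th percentile of the array. No probe was saturated. Duplicate arrays were averaged. Names came from RefSeq accessions (25711 probes), and 16694 probes have none. Of several probes the brightest was used. Listed genes are named at most 4 per list for no FGF against bFGF and 2 elsewhere, by size of the difference. The members and the 9 other lists were chosen with earlier results of these data known. limma 3.58.1 in R 4.3.3 (lmFit, eBayes, Benjamini-Hochberg over all probes, threshold 0.05) was fitted to 12 H1 cultures and to 10 long-term cultures with the system as a block, and was tested on simulated data. A fold is "at least" where the dimmer group is not well above background on all arrays, which then count at the lowest signal well above background if below it. This bound holds within the 75th percentile scaling only, and normexp gave smaller folds for EGR3 in KhES-1 and for JUNB. Experiment numbers come from the sample titles. Correlations of deviations from the arm mean within an experiment were over 0.1 in every pair between no FGF and bFGF (0.19 to 0.32) or FGFC (0.23 to 0.26), which were therefore also tested with the experiment as a block. Between FGFC and bFGF (0.077 to 0.18) and with pre-cultures (down to -0.16) they were not. Alternatives were normexp (offset 50), quantile normalization, blocks, 2 arms, a background filter, single arrays and leaving out cultures. Counts between systems under other scalings were added after seeing the data. Promoter windows came from RefSeq (6 members matched). Tables were made in Python 3.11.15 (pandas 2.3.3, numpy 2.4.6, scipy 1.17.1).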

Additional observations from a re-analysis of the deposited data

Results flagged for a closer look

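In each gene the 5 long-term differences between FGFC and bFGF were checked for a system far from the others. EGR1 in H1 in E8 Medium, at 1.32, and JUNB in 201B7, at -0.98, were farther from the rest than Dixon's limit for 5 values allows. Chance flags about 1 in 20 groups, and 10 genes were checked.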

How the results depend on the processing

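Of 549 values of single genes under alternatives, 499 kept their direction and their side of the threshold, 16 lost a call (14 of them by leaving out an experiment), 5 gained one and 29 changed sign. None of these 29 passed the test, and none of the calls changed sign. The number of the 10 genes past limma was 0 to 3 (no FGF against bFGF) and 0 to 2 (no FGF against FGFC) when an experiment was left out, against 4 and 4, where fewer cultures enter the fit, 2 per arm. With the experiment as a replicate block it was 4, 5, 0 and 0 over the 4 comparisons, FOSL1 being added, and 5746 and 4921 probes passed against 5398 and 4572. Of the other lists, this block added FOSL2 (against bFGF), JUND (against FGFC) and BHLHE40 (both) and removed LIF, PLAUR and LIN28A (against FGFC), and beside these and the HSPA1A of the report it changed no other call. The number spanning 2-fold was 0 (normexp) and 2 (first arrays) in the pre-cultures and 1 (quantile) and 1 (second arrays) with bFGF. In MEF-CM the count 2-fold higher, an alternative chosen after seeing the data, was 1 with normexp. Normexp also moved the balance of probes past limma between no FGF and bFGF from 2348 higher and 3050 lower to 3228 and 2820, and fitting only the 2 arms moved it to 5547 and 4192, or 9739 probes (against FGFC 2545 passed in such a fit). Without experiment 1, 2 and 3, 3552, 1939 and 1271 probes passed against bFGF and 3836, 1478 and 973 against FGFC. Signs changed as follows. On first arrays: EGR2 -0.018 (no FGF against bFGF), JUN 0.11 (no FGF against FGFC), and EGR2 0.16, EGR3 -0.14 and MYC 0.032 (bFGF against pre-culture). With normexp: EGR3 -0.15 (bFGF against pre-culture). In long-term culture: JUN -0.026 (second arrays) and MYC -0.0059 (quantile). The others changed sign within the range over leaving out each experiment: EGR2 -0.43 to 0.33 (no FGF against bFGF); EGR3 -0.049 to 0.80, FOS -0.39 to 0.12, JUN -0.75 to 0.098 and JUNB -0.14 to 0.25 (no FGF against FGFC); EGR1 -0.027 to 0.36 and FOS -0.65 to 0.17 (FGFC against bFGF); EGR2 -0.10 to 0.18, EGR3 -0.15 to 0.53 and FOS -0.57 to 0.057 (bFGF against pre-culture). Over leaving out each long-term system they were EGR1 -0.16 to 0.24, EGR2 -0.022 to 0.27, FOS -0.21 to 0.080, JUN -0.15 to 0.14, JUNB -0.19 to 0.12, IER3 -0.11 to 0.21, PHLDA1 -0.027 to 0.20 and MYC -0.0083 to 0.13. The cause was not tested. Signal over background limits EGR3 and JUNB, for which differences among dim cultures are not resolved.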
